A study of Mus musculus with 8 samples.

Results

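Obestatin is a peptide cut from the same precursor as the stomach hormone ghrelin, and the series tested obestatin, its N-terminal fragment and a fragment analog known by the code Nt8U in mice. The comparison described here sets Nt8U against the parent N-terminal peptide. It was defined by the agent named in the sample labels and holds 4 of the 8 samples, 2 for each peptide. CFT Swiss albino mice 5 weeks of age were injected intraperitoneally for 8 days with Nt8U, the N-terminal peptide, obestatin or saline. The 3 peptides share 1 stated dose, but the design text gives it as 80 ng/kg with 6 mice per group and the growth protocol as 80 nmol/kg with 3 mice per group. RNA came from tissue that the labels call epididymal in some fields and epididymal fat pad in others. The labels give the mice no genetic modification, and they do not say whether the 2 samples of a group were separate mice or pools. The spread behind every p-value is therefore that of the labelled samples after normalization, and it may be technical.

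Both samples of a group were hybridised to the same 2-colour Agilent mouse array, replicate 1 in the dye Cy3 and replicate 2 in Cy5, so array and group cannot be told apart. All 4 arrays of the series lay on 1 slide. Expression is given as normalized log2 intensity, on which 1 unit is a 2-fold difference, and Nt8U was set against the N-terminal peptide within each dye. Median raw signals were 80.5 and 155 intensity units in N-terminal replicates 1 and 2 and 73 and 231.5 in Nt8U replicates 1 and 2, against median backgrounds between 22 and 31. The small number of arrays limits the precision.

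White fat stores triglyceride in adipocytes and releases it as fatty acids. Around the adipocytes lie capillary endothelium, fibroblasts that lay down matrix, and resident macrophages. The nuclear receptor Pparg and the factor Cebpa turn on the adipocyte programme, and leptin and adiponectin are hormones that adipocytes secrete. The epididymal fat pad lies against the testis and the epididymis, so genes of both organs were followed as well.

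All 22 measured genes of the adipocyte list were well above background in each of the 8 samples, and so was every one of the 21 endothelial genes. The tissue also held RNA of testis germ cells, and unequally so. The median of the 23 germ cell genes stood at 9.69 and 15.24 log2 units in N-terminal replicates 1 and 2, 8.58 and 14.44 in Nt8U, 9.15 and 15.57 in saline and 11.77 and 10.29 in obestatin. Replicate 2 of the N-terminal peptide, of Nt8U and of saline was therefore far above replicate 1 for these genes, and 13 of the 23 were saturated in N-terminal replicate 2. Over all genes tested, the log2 levels of N-terminal replicates 1 and 2 correlated at r = 0.558. These are Pearson correlations across 15443 genes, which are not independent replicates. N-terminal replicate 1 correlated with obestatin replicate 2 at r = 0.971 and with saline replicate 1 at r = 0.95. Nt8U replicates 1 and 2 correlated at r = 0.746. Nt8U replicate 1 correlated with obestatin replicate 1 at r = 0.905, and Nt8U replicate 2 with saline replicate 2 at r = 0.919. In neither group did the replicates correlate most with each other. The part of the germ cell RNA in the results below was not tested, and each result is given per dye because of it. In bulk samples, fewer cells of a type and less RNA per cell cannot be told apart.

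Nt8U samples carried higher levels of adipocyte, macrophage, endothelial, fibroblast and matrix genes than N-terminal peptide samples in both dyes. Fewer genes were at least 2-fold lower in both dyes than at least 2-fold higher, and the lower ones held some genes of the epididymis. Of 15443 genes tested, 1095 (7.09%) were at least 2-fold higher with Nt8U in both dyes and 354 (2.29%) at least 2-fold lower, so that 75.6% of these were higher. With the scanner software's processed signals in place of the corrected ones the counts were 1567 and 1159, or 57.5% higher. The limma fit over all 8 samples called 0 genes (0%) after Benjamini-Hochberg adjustment at 0.05. The lowest adjusted p was 0.184, while 1407 genes (9.11%) were higher and 310 (2.01%) lower at an unadjusted p under 0.05. The median standard error of a difference was 0.493 log2 units, so that a gene needed about 1.29 units to reach that unadjusted level. Within the N-terminal peptide group 57.0% of genes differed over 2-fold between replicates, and within Nt8U 36.4% did. An exact permutation of 2 against 2 samples cannot give a two-sided p below 0.333.

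The dyes often disagreed. The direction was opposite for 6363 genes (41.2%), higher in both dyes for 3813 (24.7%) and lower in both for 5267 (34.1%). In 574 genes (3.72%) the dyes were at least 2-fold apart in opposite directions, and 506 of these were lower with Nt8U in Cy3 and higher in Cy5. Where both dyes moved together by 4-fold or more, 327 genes were higher and 11 lower with Nt8U.

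**Figure D1:**
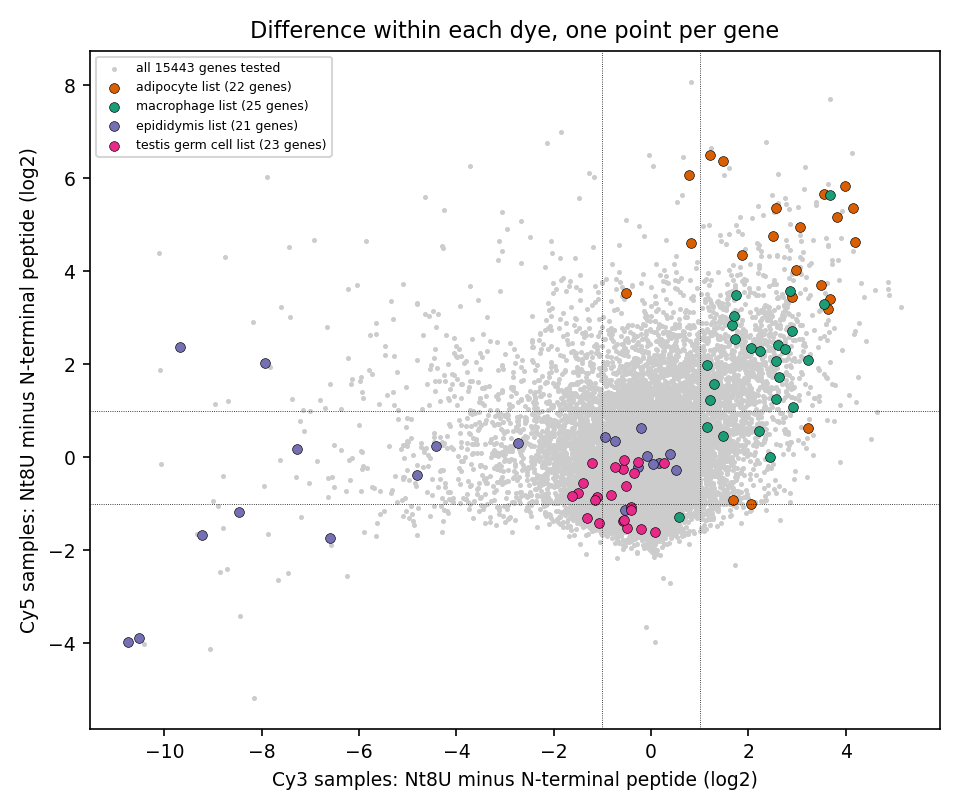
Nt8U minus N-terminal peptide in the Cy3 samples (horizontal axis, log2) against the same in the Cy5 samples (vertical axis, log2), 1 point per gene, with 4 lists in colour and dotted lines at 2-fold. Of the adipocyte genes 16 of 22 lie at or beyond 2-fold higher in both dyes, of the macrophage genes 20 of 25, and the epididymis genes spread to the left.

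Promoters are shown for the adipocyte, the macrophage and the epididymis gene with the largest difference shared by both dyes among list members that the promoter table holds. Each sequence is RefSeq on GRCm38.p6, 250 bases before to 50 after the transcription start, written 5′ to 3′ on the gene's strand. Thrsp, a regulator of lipid synthesis in adipocytes, lies at chr7:97417501-97417800 on the minus strand. Ccl6, a chemokine of macrophages, lies at chr11:83593038-83593337 on the minus strand. Spint4, a protease inhibitor gene of the epididymis, lies at chr2:164698251-164698550 on the plus strand. Capitals mark exact matches, on either strand, to AGGTCA (nuclear receptor half-site), CACGTG (E-box), GAGGAA (core of the site of the myeloid factor PU.1), AGAACA (half-site of androgen and glucocorticoid receptors), TATAAA and CCAAT.
Thrsp: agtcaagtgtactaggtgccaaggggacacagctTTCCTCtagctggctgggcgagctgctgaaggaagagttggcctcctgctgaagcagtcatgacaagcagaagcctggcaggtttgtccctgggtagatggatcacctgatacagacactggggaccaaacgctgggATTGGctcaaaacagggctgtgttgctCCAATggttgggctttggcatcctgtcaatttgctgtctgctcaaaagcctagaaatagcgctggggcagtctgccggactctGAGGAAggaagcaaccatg
Ccl6: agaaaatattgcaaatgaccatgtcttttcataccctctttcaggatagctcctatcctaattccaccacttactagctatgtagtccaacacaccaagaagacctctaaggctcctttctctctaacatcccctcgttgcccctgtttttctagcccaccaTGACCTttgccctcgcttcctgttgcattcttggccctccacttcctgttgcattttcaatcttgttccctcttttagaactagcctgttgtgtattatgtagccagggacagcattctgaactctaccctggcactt
Spint4: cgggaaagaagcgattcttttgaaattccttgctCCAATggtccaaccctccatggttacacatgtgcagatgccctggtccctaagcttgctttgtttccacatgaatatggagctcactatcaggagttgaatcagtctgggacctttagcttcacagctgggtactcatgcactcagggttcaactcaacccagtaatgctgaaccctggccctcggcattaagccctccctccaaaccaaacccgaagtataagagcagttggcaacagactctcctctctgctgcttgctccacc

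Thrsp held GAGGAA and CCAAT, Ccl6 AGGTCA and Spint4 CCAAT. Of all 27025 promoters in the table, 28.3% held GAGGAA, against 9 of 17 macrophage list promoters (52.9%) and 5 of 16 adipocyte list promoters (31.2%). AGAACA was in 19.0% of all promoters, and in 9 of 18 epididymis list promoters. AGGTCA was in 16.0% of all promoters and in 3 of the 16 adipocyte list promoters (18.8%). The list promoters are those of genes tested, and only some of the motif and list pairs that were counted are given here. A match describes the letters and is not evidence of a bound site. Among genes at least 2-fold higher in both dyes, 33.0% of 831 promoters held GAGGAA, against 26.8% of the 12388 promoters of genes tested.

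Adipocyte genes were the list with the largest median difference. The median was 3.57 log2 units higher with Nt8U (2.95 in Cy3, 4.61 in Cy5), beside -0.16 over all genes tested (-0.09 and -0.10). Of 22 measured genes, 16 were at least 2-fold higher in both dyes, 0 at least 2-fold lower, and in 17 both Nt8U samples lay above both N-terminal samples (16.2% of all genes did). None passed the adjusted threshold, and 15 were higher at an unadjusted limma p under 0.05 (9.11% of all genes were). Over all genes, 7.09% were at least 2-fold higher in both dyes and 2.29% at least 2-fold lower. Those shares are to be read beside the list counts below. Lep, which encodes leptin, was at 9.44 and 6.03 in N-terminal replicates 1 and 2 and at 13.27 and 11.19 in Nt8U replicates 1 and 2. Both Nt8U samples were above both N-terminal samples, by 4.49 log2 units on average (SE 0.63, 95% confidence interval 2.84 to 6.14, limma adjusted p = 0.184). Lep in N-terminal replicate 2 was marked well above background, but Lyve1, at 5.95 in that sample, was not. The Lep difference may therefore be limited by background. Thrsp stood at 10.99 and 8.22 with the N-terminal peptide and at 15.18 and 12.84 with Nt8U, a difference of 4.40 (SE 0.69). Mest, an imprinted gene linked to adipocyte size, went from 10.58 and 7.47 to 14.74 and 12.84 between the groups (4.76, SE 0.54). The groups did not overlap for any of these genes, and the lowest sample was N-terminal replicate 2 each time. Plin1, which coats the lipid droplet, was at 12.34 and 8.67 against 15.39 and 13.62 (4.00, SE 0.78). Sncg, abundant in adipocytes, was at 10.14 and 6.50 against 14.14 and 12.33 (4.91, SE 0.75).

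For the brightest adipocyte genes the fitted fold is only a lower limit of the estimate, because their probes were saturated in both Nt8U samples. It does not allow for the spread between samples. Adipoq, which encodes adiponectin, was at least 8.58-fold higher with Nt8U (14.56 and 11.10 against 16.42 and 15.44, limma adjusted p = 0.27). Plin4, another droplet protein, was at least 15.1-fold higher (14.93 and 9.05 against 16.40 and 15.41). Lpl, the lipase that takes fatty acids from blood triglyceride, was at least 14.4-fold higher (15.28 and 9.02 against 16.49 and 15.51). The 95% interval of the Lpl log2 difference ran from -0.19 to 7.89 and so included 0. In Adipoq, Plin4 and Lpl, N-terminal replicate 2 lay far under replicate 1. The Cy3 difference alone was 1.86 for Adipoq, 1.47 for Plin4 and 1.21 for Lpl. Fabp4, the fatty acid carrier of adipocytes, was saturated in both Nt8U samples and in N-terminal replicate 1, so its Cy3 samples have no order. In Cy5 it was at 11.95 with the N-terminal peptide and at 15.47, at saturation, with Nt8U. Aqp7, the glycerol channel, was 2.05 higher in Cy3 and 1.02 lower in Cy5. Agpat2, an enzyme of triglyceride synthesis, was 1.68 higher and 0.91 lower in the same order. Cfd, Adrb3 and Acsl1 were on the list but were not tested.

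**Figure D2:**
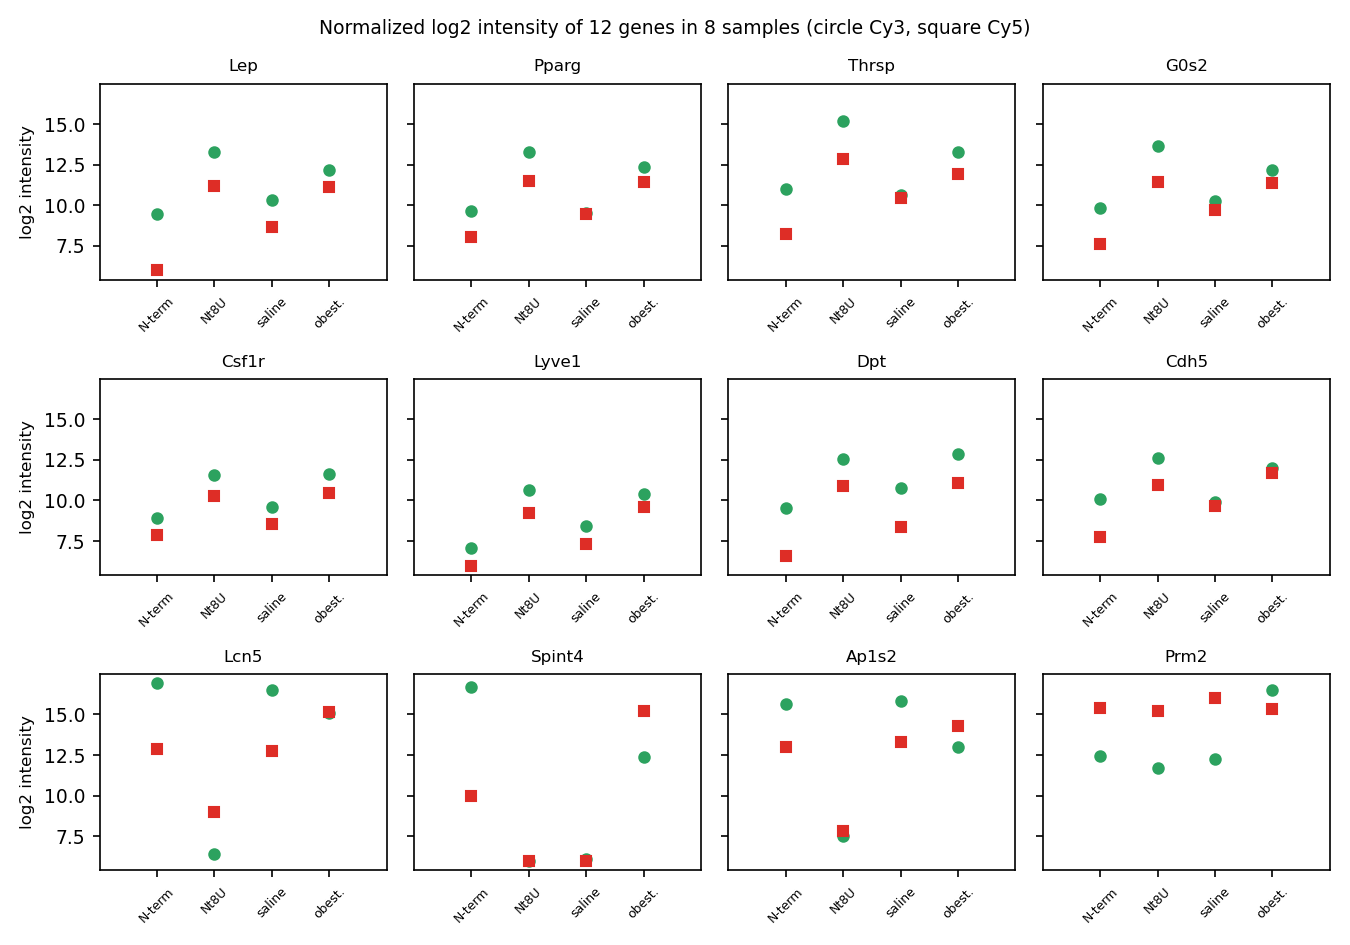
Normalized log2 intensity of 12 genes in each of the 8 samples, by group, with circles for Cy3 (replicate 1) and squares for Cy5 (replicate 2). Both Nt8U samples of Lep, Pparg, Thrsp, G0s2, Csf1r, Lyve1, Dpt and Cdh5 lie above both N-terminal samples, those of Lcn5, Spint4 and Ap1s2 lie below, and Prm2 follows the dye in all groups except obestatin.

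Transcription factors of the adipocyte programme had a median of 1.55 log2 units higher with Nt8U over 22 genes (1.49 in Cy3, 1.92 in Cy5), and 10 were at least 2-fold higher in both dyes and 0 lower. Pparg was at 9.63 and 8.07 with the N-terminal peptide and at 13.31 and 11.48 with Nt8U. The groups did not overlap, and the difference was 3.54 (SE 0.53, 95% interval 2.16 to 4.93, limma adjusted p = 0.184). Cebpa was at 10.58 and 6.68 against 13.57 and 10.70, a difference of 3.50 (SE 0.73). Ebf1, an early factor of the lineage, was at 7.67 and 6.58 against 10.94 and 8.79 (2.74, SE 0.55). The list was not uniform, since Srebf1, the factor of lipid synthesis genes, was 1.22 lower in Cy3 and 1.92 higher in Cy5. Gata3, a brake on adipocyte formation, was 4.25 lower in Cy3 and 5.31 higher in Cy5. Klf5 and Klf2 were lower with Nt8U in both dyes, by 0.87 (SE 0.52) and 0.29 (SE 0.34) on average.

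Among 13 adipokine genes, 7 were at least 2-fold higher in both dyes and 0 lower, with a median of 1.52 (1.86 in Cy3, 1.93 in Cy5). Lep, Adipoq and Retn also stand on the adipocyte list. Retn, which encodes resistin, was at 11.55 and 7.67 with the N-terminal peptide and at 15.10 and 13.33 with Nt8U, a difference of 4.61 (SE 0.88). Rbp4, a retinol carrier, was at 12.92 and 9.77 against 16.21 and 13.95 (3.74, SE 0.64). Rarres2, which encodes chemerin, was at 12.73 and 9.48 against 14.98 and 13.91 (3.34, SE 0.76). The groups were apart for these 3 genes. Lcn2, a lipocalin also made by neutrophils, went the other way, at 9.54 and 9.53 against 7.15 and 9.46.

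Fatty acid and triglyceride synthesis genes gave a median of 0.96 (1.68 in Cy3, 1.25 in Cy5). Of 21 genes, 6 were at least 2-fold higher in both dyes (7.09% of all genes were). The direction differed between dyes for 10, a share near the 41.2% of all genes. Acacb and Acaca, the acetyl-CoA carboxylases, were higher by 3.02 (SE 0.69) and 2.99 (SE 0.80). Acaca stood at 9.11 and 8.66 with the N-terminal peptide and at 13.37 and 10.38 with Nt8U. Fasn, the fatty acid synthase, was saturated in both Nt8U samples and its fitted fold was at least 1.77, with overlapping groups (16.34 and 14.01 against 16.49 and 15.51). The 95% interval of the Fasn log2 difference ran from -0.68 to 2.33 and so included 0. Scd1, the stearoyl-CoA desaturase, was 3.65 higher in Cy5 and at 16.32 and 16.31 in Cy3, where the Nt8U sample was saturated. Dgat2, which makes triglyceride, was at 13.59 and 12.89 against 16.36 and 14.56, a difference of 2.22 (SE 0.56) with Nt8U replicate 1 saturated.

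Of 20 lipolysis and lipid droplet genes, 7 were at least 2-fold higher in both dyes and 0 lower, with a median of 1.63 (1.91 in Cy3, 1.28 in Cy5). G0s2, an inhibitor of the first lipase of lipolysis, was at 9.81 and 7.59 with the N-terminal peptide and at 13.68 and 11.41 with Nt8U. That gene did not overlap between groups, and it differed by 3.84 (SE 0.58). Pnpla2, the lipase itself, was at 12.69 and 13.05 against 14.88 and 13.51, a difference of 1.33 whose 95% interval ran from -0.39 to 3.04. Lipe, hormone-sensitive lipase, was at 9.24 and 10.10 against 12.46 and 10.73, with an interval from -0.41 to 4.26. Both lipases were higher in both dyes, with most of the difference in Cy3. Prkar2b, the regulatory subunit of protein kinase A in fat, was at 12.94 and 11.18 against 15.51 and 14.04 (2.72, SE 0.48). Faah, which breaks down endocannabinoids, was lower in both dyes, with differences of -2.11 in Cy3 and -0.28 in Cy5.

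Fatty acid oxidation genes had a median of 1.08 (1.16 in Cy3, 1.06 in Cy5), and 8 of 23 were at least 2-fold higher in both dyes with 0 lower. Acadm, the medium-chain dehydrogenase, was at 12.95 and 10.81 with the N-terminal peptide and at 14.59 and 13.30 with Nt8U (2.07, SE 0.48). Pdk4, the kinase that shuts glucose carbon out of the mitochondrion, was among the 10 highest genes of the comparison, at 10.10 and 7.41 against 14.24 and 11.84 (4.29, SE 0.81). Lipoprotein and cholesterol transport genes had a median of 1.63 (1.31 and 2.12), and 10 of 21 were at least 2-fold higher in both dyes. Cd36, the fatty acid translocase, was at 13.06 and 8.74 against 15.63 and 14.10 (3.96, SE 1.04). Gpihbp1, which holds lipoprotein lipase on capillaries, was at 11.06 and 7.70 against 14.13 and 12.47 (3.92, SE 0.78). For both genes the N-terminal replicates lay further apart than the Nt8U replicates.

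Several metabolic lists did not reach a median of 0.5 log2 units in both dyes, the threshold used for a list. Oxidative phosphorylation genes had a median of 0.18 (0.44 in Cy3, -0.07 in Cy5), and 0 of 29 were 2-fold apart in both dyes. Ndufa2, a complex I subunit, was at 13.72 and 14.04 against 13.56 and 13.75, with a 95% interval of the difference from -1.01 to 0.56. The dyes disagreed for 18 of the 29, against 41.2% of all genes. Cholesterol synthesis genes had a median of 0.03 with 1 of 19 at least 2-fold higher and 1 lower in both dyes. Tricarboxylic acid cycle genes had a median of 0.60 (0.90 and 0.23), and 3 of 20 were at least 2-fold higher. Pcx, pyruvate carboxylase, led them at 12.41 and 10.81 against 15.54 and 13.10 (2.71, SE 0.50). Most members of these lists were under 2-fold apart in at least 1 dye. Insulin signalling genes had a median of 0.53 (0.12 and 0.70), with 5 of 21 at least 2-fold higher. Slc2a4, the insulin-regulated glucose transporter, was at 10.49 and 7.38 against 13.00 and 12.13 (3.63, SE 0.70). Irs1, a substrate of the insulin receptor, was at 9.96 and 7.74 against 11.37 and 10.96 (2.32, SE 0.63), while the receptor gene Insr overlapped between groups, with an interval from -0.87 to 2.41. Brown and beige fat genes had a median of 0.46 (1.21 and -0.04). Ucp1, the uncoupling protein of brown fat, was not well above background in either N-terminal sample, at 6.11 and 6.16 against 6.79 and 5.96 in Nt8U.

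Macrophage genes were higher with Nt8U in both dyes to nearly the same extent, with a median of 2.20 (2.25 in Cy3, 2.09 in Cy5). Of 25 genes, 20 were at least 2-fold higher in both dyes and 0 lower. In 24, both Nt8U samples lay above both N-terminal samples (16.2% of all genes did). Msr1, a scavenger receptor, was the exception, 0.58 higher in Cy3 and 1.29 lower in Cy5. Csf1r, the receptor for the macrophage growth factor, was at 8.93 and 7.86 with the N-terminal peptide and at 11.54 and 10.28 with Nt8U, a difference of 2.51 (SE 0.27, limma adjusted p = 0.184). Adgre1, the F4/80 antigen, was at 8.94 and 9.44 against 11.51 and 10.70 (1.91, SE 0.67). Lyve1, a hyaluronan receptor of resident macrophages and lymphatic vessels, was at 7.06 and 5.95 against 10.62 and 9.25 (3.43, SE 0.29), with N-terminal replicate 2 not well above background. These genes did not overlap between the groups. C1qa, a complement subunit, was at 9.27 and 7.81 against 12.18 and 10.53 (2.81, SE 0.27). C1qa, well above background in all 4 samples, was among the 5 higher genes with the smallest unadjusted p of the whole comparison. Ccl6 was at 10.22 and 6.22 against 13.90 and 11.86 (4.66, SE 0.78). Cd163, a scavenger receptor of resident macrophages, was at 8.51 and 6.16 against 11.37 and 9.74 (3.21, SE 0.57).

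Genes for MHC class II antigen presentation had a median of 1.54 (1.74 in Cy3, 1.48 in Cy5), with 5 of 10 at least 2-fold higher in both dyes. H2-Aa, a class II chain, was at 8.27 and 6.35 with the N-terminal peptide and at 11.73 and 9.52 with Nt8U (3.32, SE 0.31). Chemokine and cytokine genes had a median of 1.18 (1.14 and 1.23), with 10 of 21 at least 2-fold higher. Interferon-induced genes had a median of 1.43 (1.31 and 1.46), with 15 of 25 at least 2-fold higher. Gbp2, an interferon-induced GTPase, was at 8.78 and 7.14 against 11.59 and 10.24 (2.96, SE 0.35). None of these 3 lists had a gene at least 2-fold lower in both dyes. T cell genes had a median difference of 0.23, against -0.16 over all genes, and 0 of 14 at least 2-fold apart in both dyes. In the B cell list 2 of 9 genes were at least 2-fold higher, one of them Ighm, the immunoglobulin mu chain. Ighm had the smallest unadjusted p of all genes (9.4e-05), at 9.31 and 7.32 against 13.02 and 11.57 (3.98, SE 0.32). Mast cell and granulocyte genes had a median of 1.31 (0.67 and 1.98) over 8 genes. S100a8, a calcium-binding protein of neutrophils, was not well above background with the N-terminal peptide, with a bound of 4.40-fold higher with Nt8U.

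Endothelial genes had a median of 2.38 (2.34 in Cy3, 2.17 in Cy5), and 17 of 21 were at least 2-fold higher in both dyes with 0 lower. Pecam1, the adhesion molecule CD31, was at 7.77 and 6.36 with the N-terminal peptide and at 10.11 and 8.41 with Nt8U (2.20, SE 0.33). Cdh5, the endothelial cadherin, was at 10.09 and 7.78 against 12.61 and 10.95 (2.85, SE 0.65). Emcn, a sialomucin of capillaries and veins, was at 10.17 and 7.78 against 11.89 and 10.94 (2.44, SE 0.54). These genes did not overlap between the groups. Hba-a1, an alpha-globin gene of red blood cells, was higher as well, at 11.94 and 10.05 against 15.87 and 15.35. Its near-identical copy Hba-a2 was at 12.16 and 10.62 against 16.07 and 15.33, and the probes may share signal. Both globin probes were saturated in Nt8U replicate 2, so those values are lower limits.

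Fibroblast genes had a median of 2.30, with a smaller difference in Cy3 (1.28) than in Cy5 (3.60), and 13 of 22 were at least 2-fold higher in both dyes. Dpt, which encodes dermatopontin, was at 9.53 and 6.57 with the N-terminal peptide and at 12.58 and 10.88 with Nt8U (3.68, SE 0.42). Pdgfra, a growth factor receptor of fibroblasts and fat progenitors, was at 10.00 and 8.07 against 10.36 and 10.67, so that nearly all of its difference lay in Cy5. Col1a1, a chain of the main fibrillar collagen, was 0.52 lower with Nt8U in Cy3 and 5.10 higher in Cy5. Matrix genes had a median of 1.73 (1.73 and 2.32), and 20 of 29 were at least 2-fold higher with 0 lower. Col4a2, a basement membrane collagen, was at 10.70 and 8.71 against 13.43 and 11.99 (3.01, SE 0.35). Fn1, which encodes fibronectin, was at 8.91 and 7.39 against 11.47 and 10.95 (3.06, SE 0.38). Mesothelial genes had a median of 0.71 (0.59 and 1.63), with 5 of 14 at least 2-fold higher and 1 lower in both dyes. Msln, the mesothelial surface protein mesothelin, was at 10.09 and 6.17 against 11.52 and 10.83 (3.04, SE 0.96). Not all members rose, since 2 of the 14 were lower in both dyes and 5 opposite. In Cy3 the median level of the list was 10.07 with the N-terminal peptide and 9.02 with Nt8U. The highest level of any member there was 16.65 and 11.57.

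**Figure D3:**
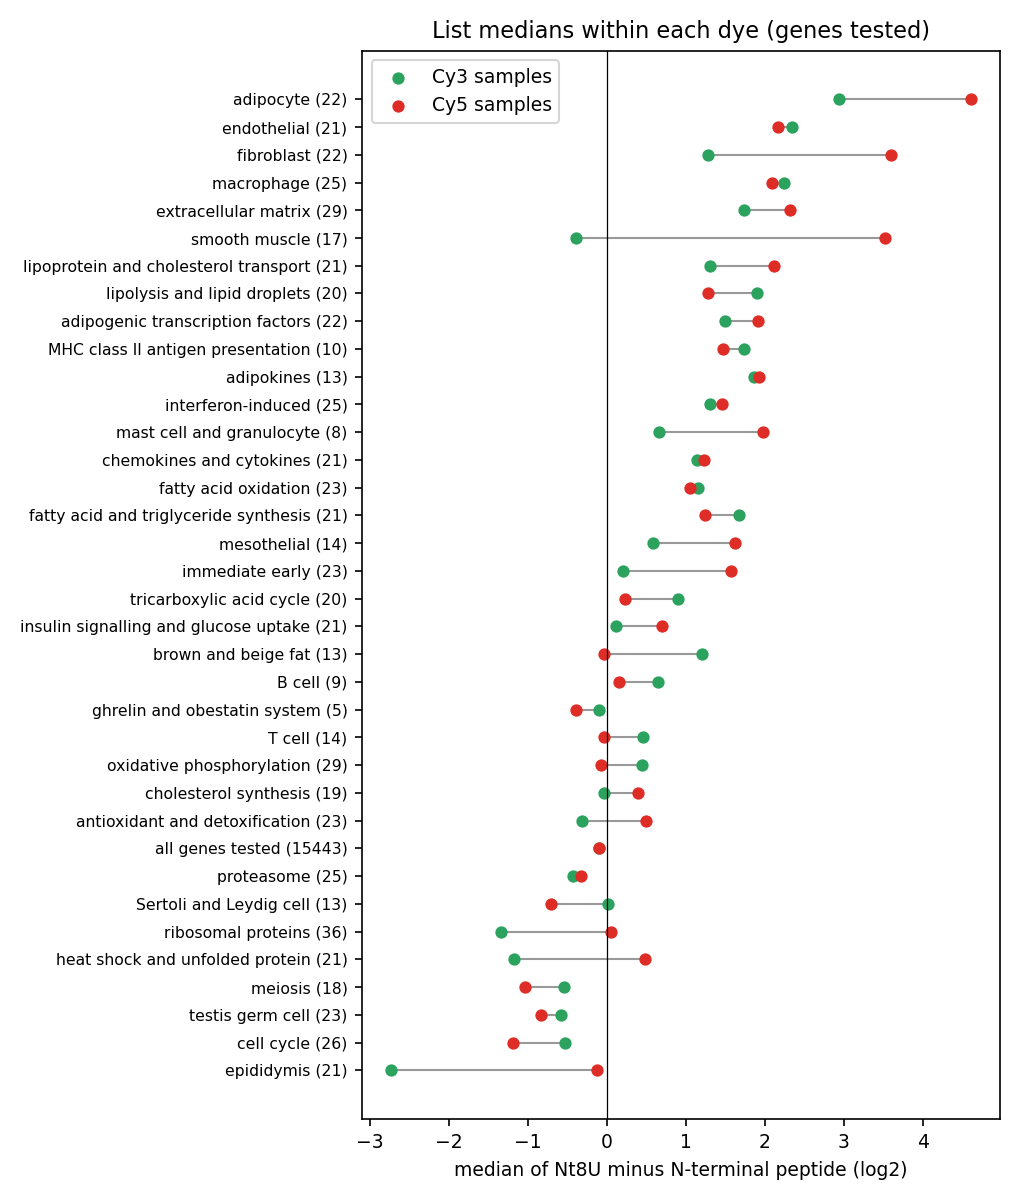
Median of Nt8U minus N-terminal peptide (horizontal axis, log2) for each list with at least 5 genes tested and for all genes, in Cy3 (green) and Cy5 (red), with the number of genes tested in brackets. Macrophage and endothelial medians lie close together in both dyes, and smooth muscle, heat shock and ribosomal protein medians lie on opposite sides of 0.

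Smooth muscle genes had the dye medians furthest apart of the lists with at least 5 genes tested. These were -0.39 in Cy3 and 3.52 in Cy5. The dyes were opposite for 10 of 17 genes, against 41.2% of all genes. In Nt8U replicate 2, 6 of the 17 were saturated, Cnn1 among them, against 0 in the other 3 samples of these groups. Myh11, the smooth muscle myosin heavy chain, was at 12.83 and 9.61 with the N-terminal peptide and at 11.35 and 15.18 with Nt8U. Cnn1, a calponin of smooth muscle, was at 13.63 and 10.53 against 10.51 and 15.19. In both genes Nt8U replicate 2 was the highest of the 4 samples and Nt8U replicate 1 was under N-terminal replicate 1. Heat shock and unfolded protein genes had medians of -1.17 and 0.49, and immediate early genes of 0.20 and 1.58. Hspa1a, an inducible chaperone, was 3.84 lower in Cy3 and 2.02 higher in Cy5. Ribosomal protein genes had medians of -1.33 and 0.06 over 36 genes, of which 14 were saturated in N-terminal replicate 2 and 17 in Nt8U replicate 2. Proteasome genes had medians of -0.43 and -0.32, with 0 of 25 at least 2-fold apart in both dyes.

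Germ cell, meiosis and cell cycle genes were lower with Nt8U in both dyes, with list medians closer between the peptides than between the replicates of either. The germ cell median was -0.82 (-0.57 in Cy3, -0.83 in Cy5). In Cy5, 13 of the 23 genes were saturated with the N-terminal peptide and 6 with Nt8U, so saturation limits that difference. Of 23 genes, 21 were lower in both dyes (34.1% of all genes were) and 2 at least 2-fold lower (2.29% of all genes). No germ cell gene had both Nt8U samples below both N-terminal samples (11.6% of all genes did). Prm2, a protamine that packs sperm DNA, was at 12.44 and 15.40 with the N-terminal peptide and at 11.70 and 15.19 with Nt8U, with replicate 2 of both peptides saturated. Tcp11, a gene of spermatids, was at 9.74 and 14.89 against 8.41 and 13.58 (-1.32, SE 2.05). The replicates of each peptide were much further apart than the peptides. Meiosis genes had a median of -0.71 (-0.53 and -1.04), and 2 of 18 were at least 2-fold lower in both dyes. Cell cycle genes had a median of -0.85 (-0.52 and -1.18), with 2 of 26 at least 2-fold lower and 0 higher. Ccnb2, a mitotic cyclin, was at 11.21 and 15.31 against 10.17 and 14.02, a sample order like that of the germ cell genes. Without Nt8U replicate 1 the germ cell median was 0.03 and without N-terminal replicate 2 it was 0.24, and the meiosis median was 0.10 and 0.43.

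**Figure D4:**
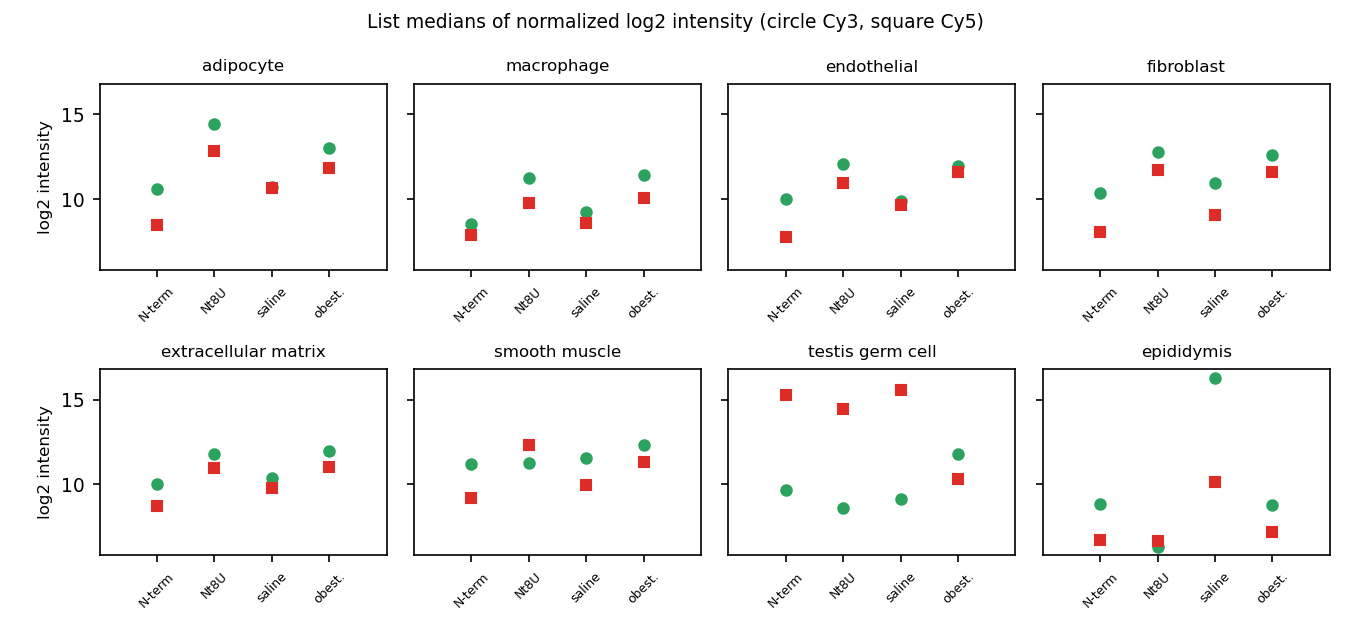
Median normalized log2 intensity of 8 lists in each sample, by group, with circles for Cy3 and squares for Cy5. Nt8U and obestatin lie above the N-terminal peptide and saline for adipocyte, macrophage and endothelial genes, germ cell genes are near 15 in replicate 2 of 3 groups, and epididymis genes are highest in saline replicate 1 at 16.29.

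Some genes of the epididymis were among the largest lower differences, and the list varied widely between samples. Sperm mature in this duct, and its segments secrete lipocalins, defensins and protease inhibitors. The list median was -1.21, with -2.73 in Cy3 and -0.12 in Cy5, so the list did not reach the threshold in both dyes. Of 21 genes, 5 were at least 2-fold lower in both dyes (2.29% of all genes were) and 0 at least 2-fold higher. The dyes were opposite for 12 (41.2% of all genes). In Nt8U replicate 1, 4 of the 21 were well above background, against 16 in N-terminal replicate 1, and 17 in replicate 2 of either peptide. Lcn5, a retinoid-binding lipocalin of the duct, was at 16.92 and 12.87 with the N-terminal peptide and at 6.41 and 8.98 with Nt8U. The groups did not overlap. The probe was saturated in N-terminal replicate 1 and not well above background in Nt8U replicate 1, so the fitted difference of -7.20 (SE 1.82, limma adjusted p = 0.25) is limited at both ends. Lcn5 was at 16.48 and 12.73 in saline and at 15.09 and 15.16 in obestatin, so the Nt8U samples were the low ones of the series. Spint4 was not well above background in either Nt8U sample, with a bound of 158-fold lower there (16.70 and 9.95 against 5.96 and 5.98). That bound rests largely on N-terminal replicate 1, since the fitted log2 difference of Spint4 was -7.35 with all samples and -3.52 without that replicate. In saline it was at 6.13 and 5.98, so for Spint4 the N-terminal peptide and obestatin samples stood out. Epp13, an epididymal protease inhibitor gene, and the defensin genes Defb35 and Defb12 were not well above background in either Nt8U sample. With the N-terminal peptide Epp13 was at 15.34 and 10.35, Defb35 at 14.49 and 9.60 and Defb12 at 13.66 and 8.70. The bounds on group means were at least 97.0-, 60.9- and 34.9-fold lower with Nt8U. Without N-terminal replicate 1 the fitted log2 differences moved from -6.60 to -4.56 for Epp13, from -5.93 to -4.10 for Defb35 and from -5.15 to -3.28 for Defb12. Lcn8, Cst11 and Rnase10, also of the duct, were at or below 7.14 in the 4 Nt8U and N-terminal peptide samples. In saline Lcn8 stood at 16.45 and 10.99. Gpx5, an epididymal glutathione peroxidase, was 7.28 lower in Cy3 and 0.18 higher in Cy5, and Adam7 was 9.69 lower and 2.37 higher, both not well above background in Nt8U replicate 1.

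Outside the testis and epididymis lists, the gene with the largest lower difference shared by both dyes was Ap1s2, a subunit of a clathrin adaptor. It was at 15.66 and 13.02 with the N-terminal peptide and at 7.51 and 7.84 with Nt8U, a difference of -6.67 (SE 1.15, limma adjusted p = 0.184). Saline was at 15.80 and 13.33 and obestatin at 13.02 and 14.30, so both Nt8U samples stood below the 6 others. Rhcg, an ammonium transporter of epithelia, was at 14.20 and 12.16 against 6.73 and 9.67 (-4.98, SE 1.46). Ido1, which breaks down tryptophan, was at 16.07 and 8.63 against 6.74 and 6.98, with a wide error (-5.49, SE 2.57). Myom2 and Myh1, genes of striated muscle, were lower by 4.76 and 3.68 (SE 1.53 and 1.31). Myom2 was at 15.02 and 10.99 with the N-terminal peptide, 13.48 and 13.39 in obestatin, 9.12 and 9.95 in saline and 7.15 and 9.33 with Nt8U. Myh1 was at 12.30 and 8.60, 10.56 and 12.09, 9.16 and 7.55, and 6.65 and 6.89 in the same order. In each dye the N-terminal peptide and obestatin samples were above saline and Nt8U was below it. Ace, angiotensin-converting enzyme, which has a form made in testis, was lower with a small error, at 11.81 and 11.55 against 8.96 and 9.95 (-2.23, SE 0.39). The largest opposite difference was that of Serpina1f, 7.89 lower in Cy3 and 6.02 higher in Cy5.

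No measured gene of the ghrelin system had an unadjusted p under 0.05, and the 95% intervals below include 0. Ghrl, the precursor gene of ghrelin and obestatin, was at 6.63 and 10.70 with the N-terminal peptide and at 6.54 and 8.80 with Nt8U. The interval of its difference ran from -4.02 to 2.04, and replicate 2 was the higher in both groups. In Nt8U replicate 1 the Ghrl signal did not stand well above background. Ghsr, the ghrelin receptor, was at 6.18 and 6.34 against 6.70 and 6.48, with an interval from -0.40 to 1.07. Gpr39, a receptor proposed for obestatin, was at 6.73 and 8.41 against 6.57 and 7.57, with an interval from -1.77 to 0.78. Ghsr in N-terminal replicate 1 and Gpr39 in Nt8U replicate 1 were not well above background. Glp1r, another proposed receptor, was not tested because it was not well above background in any sample. The 5 measured genes of this system included 0 that were 2-fold apart in both dyes.

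Each peptide was also set beside saline, and the 2 comparisons share their saline samples. Adipocyte genes had a median of 2.54 for Nt8U against saline and of -1.33 for the N-terminal peptide against saline. The macrophage medians were 1.37 and -0.63, the endothelial medians 1.90 and -0.31, and the matrix medians 1.41 and -0.56, in the same order. In N-terminal replicate 2 the adipocyte median was 8.45 log2 units, the lowest of the 8 samples, and N-terminal replicate 1, at 10.58, was near the saline samples at 10.70 and 10.65. The Nt8U samples, at 14.44 and 12.84, were the highest of their dye, above obestatin at 13.04 and 11.85. For macrophage genes obestatin was the higher, at 11.42 and 10.04 against 11.27 and 9.78 with Nt8U, and so it was for matrix genes, at 11.97 and 11.02 against 11.77 and 10.95. Endothelial medians were 11.97 and 11.61 with obestatin and 12.05 and 10.94 with Nt8U. Lep was at 10.33 and 8.68 in saline and at 12.16 and 11.13 in obestatin, between the N-terminal peptide and Nt8U samples of the same dye.

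The authors' deposited tables list 37 genes as higher and 72 as lower with the N-terminal peptide against saline, and state 552 and 212 for Nt8U. Of the 37, Nt8U was below the N-terminal peptide in both dyes for 30 and above for 0. Of the 72, it was above in both dyes for 32 and below for 1. These genes were picked on the N-terminal samples, which favours that direction, so the counts describe the lists and no test was made. The median log2 ratio to saline of the 72 in the authors' deposited tables was -1.38 with the N-terminal peptide and -1.03 with Nt8U. Pnpla3, a lipid droplet protein regulated by feeding, was chosen after its values were seen. In the authors' deposited table it was -1.20 and -3.50 for the N-terminal samples and 4.16 and 0.94 for the Nt8U samples. In the normalized values it was 4.18 log2 units higher with Nt8U (SE 0.82), at 12.14 and 9.23, with both N-terminal samples lower and replicate 2 of them not well above background.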

How the data were processed

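Gene expression was measured in 4 groups of 2 samples, each sample 1 channel of an Agilent 2-colour array. Per the file headers, the deposited intensities were made with Feature Extraction 10.5.1.1 (scanner model G2505C); median signals and median backgrounds were used here. The deposited readme names green as Cy3 and red as Cy5. The authors' deposited log2 table labels them the other way round (each column matched the other channel of its array, r = 1.00). The readme was followed here. In the authors' deposited gene lists, Nt8U minus N-terminal peptide for Myom2 was -7.73 (readme's Cy3 samples) and -1.79 (Cy5). From the green and red channels it was -7.86 and -1.66 here. Rtp1 was at -1.19 and -3.05 in the lists and -1.33 and -2.08 here, so both genes follow the readme. Hba-a2, with a similar difference in both dyes, was at 4.49 and 4.40 against 3.91 and 4.71. The 109 probes were not compared as a set, so the labelling was not settled. Either reading leaves each value in its group.

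Background was corrected by normexp (offset 50), followed by loess (control spots at weight 0) and Aquantile, in limma 3.58.1 under R 4.3.3. Loess ran within each array, so between the 2 replicates of a group, and may narrow the spread behind the p-values. With percentile scaling and no loess, limma gave 1270 genes at an unadjusted p under 0.05 (lowest adjusted p 0.3745), against 1717 (0.1844). The effect of loess alone was not tested. A probe was kept when some group had it well above background in each of its samples (28165 of 41174), and 87 probes lacked a value because of outlier marks. GEO's platform annotation gives 32664 probes with 1 symbol, 45 with several and 8465 that it does not list. The brightest probe stood for each of 15443 genes. Signals of 65527 counted as saturated. A bound sets the bright group's mean against each dim sample's lowest signal well above background, or the gene's own signal where higher. Some signals not well above background exceeded that lowest signal, so the bound is not a strict limit. For a probe saturated in both samples of 1 group only, the bound is the fitted difference itself. The linear model had group means and dye (3 residual and 1.68 prior degrees of freedom), two-sided tests and Benjamini-Hochberg adjustment. The fit was tested on simulated data. One pair of compounds was compared. Each peptide was also fitted against saline, and p-values were adjusted over genes within each comparison, not over comparisons.

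Comparisons, gene lists (36, of which 35 had at least 5 genes tested) and members were chosen with earlier results of these data known. Genes are named by the largest difference shared by both dyes, the smallest unadjusted p, a fixed list, the leading members of each list in and against its direction, the largest bounds and the largest opposite differences; other list members were named after their values were seen. A list counted as shifted at a median of 0.5 log2 units in 1 direction in both dyes. Lists share members, so their medians are not independent. Lep, Adipoq, Retn, Pparg, Cebpa, Plin1, Lipe, Thrsp and Lpl each stand on the adipocyte list and on another. Promoters matched by symbol.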

Additional observations from a re-analysis of the deposited data

How the results depend on the processing

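The count of genes past an adjusted p of 0.05 was 0 in each of the 13 alternatives to the limma fit, with the lowest adjusted p between 0.152 and 0.988 and between 757 and 2279 genes at an unadjusted p under 0.05, beside 1717 here. Without Nt8U replicate 1 these numbered 757 and without replicate 2 1329, and without N-terminal peptide replicates 1 and 2 they numbered 1116 and 1095. The genes at least 2-fold higher and lower in both dyes numbered 1095 and 354, a split of 75.6% higher. With the scanner software's processed signals they numbered 1567 and 1159 (57.5% higher), and the lower count moved by over 1.5 times. At 4-fold they numbered 327 and 11. In an alternative chosen after seeing the data, the Cy3 samples alone gave 2009 higher and 2543 lower, and the Cy5 samples alone 2887 and 2524. Under quantile normalization, percentile scaling, the authors' deposited log2 table, both filters and averaged probes the 2 counts lay between 961 and 1414 and between 249 and 354. The median of all genes was -0.16 log2 units here and lay between -0.22 and 0.03 over the alternatives.

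The median of the testis germ cell list changed sign to 0.03 without Nt8U replicate 1 and to 0.24 without N-terminal peptide replicate 2, and that of the meiosis list to 0.10 and 0.43. Over the samples left out, the germ cell median ran from -1.89 to 0.24 and the meiosis median from -1.91 to 0.43. The cause was not tested. No other list that met the threshold changed sign under an alternative, and no named gene that was at least 2-fold apart in both dyes did. No paired analysis was possible because the replicate numbers follow accession order and not a number in the labels; the dye they coincide with is a term of the fit, and without it 996 genes had an unadjusted p under 0.05.

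Saturation limits the brightest genes and background the dimmest, and each group rests on 1 array.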
